A study of Mus musculus with 12 samples.

Results

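The genes described here have names used for parts of the motile axoneme, the microtubule scaffold that lets a cilium beat, and for the factors that assemble it. They were chosen by name: protein-coding rows whose symbol begins with Cfap, Dnah, Dnai, Dnaaf, Rsph or Tekt followed by a digit, together with Hydin, Ccdc39, Ccdc40 and Spag17. The rule found 79 genes among the 35509 rows of the table, of which 21721 are protein coding, and used no measured value. Whether each of the 79 products is part of a motile axoneme was not checked. RNA was measured in 12 libraries from 6 wildtype mice, which gave 1 library of large clones and 1 of small clones each. All animals carried the MADM RG;GR alleles on a mixed background, received no treatment and were 4 weeks old. MADM (mosaic analysis with double markers) labels a dividing cell and its descendants by recombination between chromosomes, so that clones can be seen and their size judged. For each library 200 cells of several clones of a mouse were cut from the distal region of the Fallopian tube by laser and pooled, then treated with proteinase K; their poly(A) RNA was amplified and prepared with Nextera XT reagents. The sizes that separate large from small clones are not given in the sources used here.

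In a motile cilium, dynein arms on the outer microtubule doublets pull on the neighbouring doublet, and radial spokes carry signals between the arms and the central pair of microtubules. Dyneins are folded and joined in the cytoplasm by assembly factors, while tektins and other filament proteins line the doublets. In the distal Fallopian tube, multiciliated cells use this machinery to sweep the egg towards the uterus, and they lie among secretory cells. Transcription of axoneme genes in such cells is driven by Foxj1, a forkhead factor, together with RFX factors, which bind a DNA motif called the X-box.

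Libraries held between 3057979 and 4227129 expected counts, so that 3 counts corresponded to 0.710 to 0.981 CPM (the expected count scaled by the library total, in the usual unit). A total of 5 libraries stood apart from the other 7: the large clones of mice 1, 2 and 6 and the small clones of mice 3 and 6. In those 5 libraries, between 7.86% and 11.0% of counts fell on chemoreceptor genes (receptors for odours, pheromones, trace amines and tastes); the other 7 had between 0.841% and 4.17%. The limit was set at 6%, and the libraries are called higher-share and lower-share below. The level of Ovgp1, an oviduct secretory protein, ran from 392 to 6710 CPM, and Krt18, an epithelial keratin, from 254 to 5700 CPM, so both tissue markers were read in all 12 libraries. Pax8, a secretory cell factor, was at 0 in some libraries of either kind.

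Axoneme transcripts were read widely but not all members were. A total of 42 of the 79 genes had 1 count or more in all 12 libraries, against 34.3% of all protein-coding genes. Another 29 were read in 6 to 11 libraries, 6 in 1 to 5 libraries, and Cfap73 and Cfap97d1 in none. The mean level over the 12 libraries was 100 CPM or more for 12 genes, between 10 and 100 for 39, between 1 and 10 for 19 and under 1 CPM for 9. The median of these means was 18.7 CPM, against 4.98 CPM for all protein-coding genes. The 5 most abundant members (Rsph3b, Cfap100, Dnaaf9, Cfap57 and Rsph9) supplied 47.5% of all axoneme CPM.

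Large clones had 65.8 ± 4.9 members with 1 count or more per library and small clones 66.5 ± 3.9 (SD, n = 6 each). The counts ran from 60 to 73 in large and from 62 to 71 in small clones, so the groups overlapped. The lowest, 60, was in the large clones of mouse 4, where 50.9% of protein-coding genes were read, the lowest share of the 12 libraries. With 10 counts or more required, 44 to 64 members were read in large and 45 to 62 in small clones, against means of 44.7% and 45.3% of protein-coding genes.

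Levels of different genes were compared per kilobase of coding sequence, which takes read coverage to be even along a transcript; evenness was not checked. The highest on this scale were Rsph3b at 521 ± 476 CPM per kb, the inner arm docking gene Cfap100 at 409 ± 335, Rsph9 at 352 ± 354 and Rsph1 at 258 ± 224 (SD, n = 12). Rsph3b, Rsph9 and Rsph1 are radial spoke genes, a group that reached down to 1.42 for Cfap61 and 0.119 for Rsph6a. The SDs are close to the means and describe spread between libraries. Whether the order of these 4 genes holds within each library was not tested. Dynein heavy chains, which are very long proteins, stood far lower: the highest were Dnah6 at 19.2 ± 21.7 and Dnah2 at 17.7 ± 16.9 CPM per kb, both inner arm motors. The highest outer arm motor was Dnah11 at 5.43 ± 8.31.

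**Figure D1:**
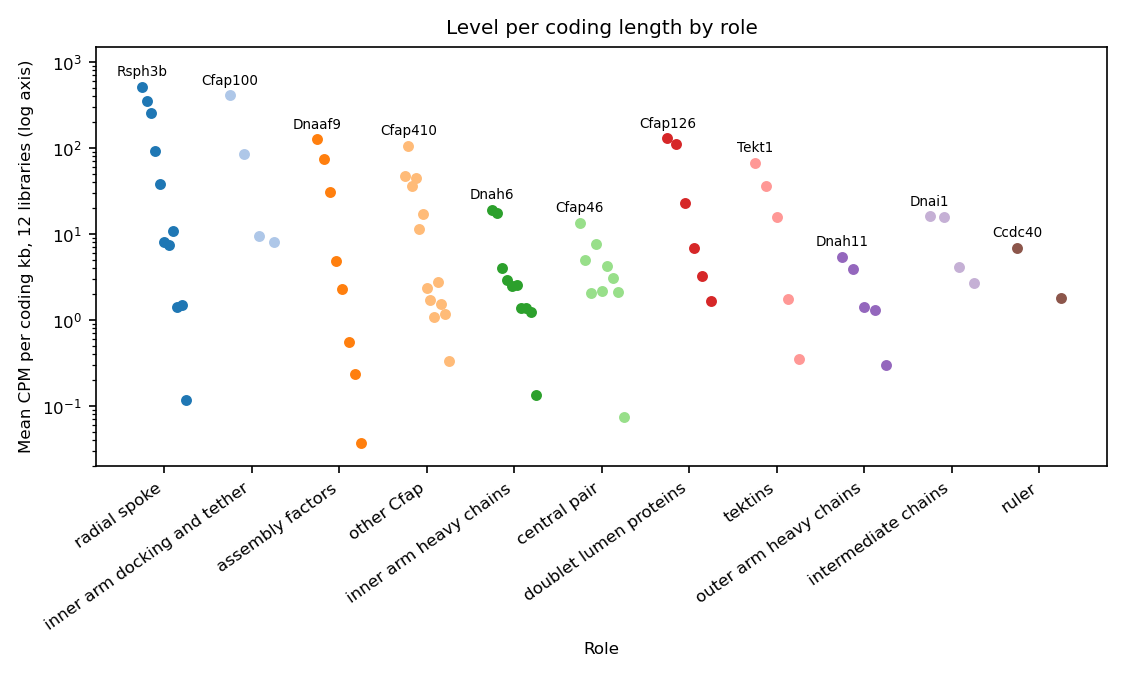
Mean CPM per coding kb over 12 libraries (log axis) of each detected axoneme gene, grouped by role on the x axis, with the highest gene of each role named. Rsph3b is highest at 521, while the highest heavy chains of the inner and outer arms, Dnah6 and Dnah11, lie at 19.2 and 5.43.

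Some members share sequence with other genes, so that reads can be divided between them by estimate. In 15 members over 10% of the 50-base windows of their transcripts also occurred in another gene, and in 30 members none did. Rsph3b shared 69.2% of its windows, most of them with its copy Rsph3a (58.1% shared), which was listed at 0 to 9.73 CPM. The Dnah7a, Dnah7b and Dnah7c copies shared 38.6%, 30.0% and 46.8%. Dnaaf4 and Dnaaf2 shared 91.8% and 68.1% and Cfap298 shared 36.0%, mostly with unnamed gene models. The values of these 8 genes are uncertain for that reason. Rsph10b shared 11.1% of its windows, most of them with Gm42421, and overlaps Gm42421 and Pms2 on its own strand. Some of its reads can therefore also be divided by estimate. Nextera XT libraries keep no strand, so reads from genes on the opposite strand that overlap a member cannot be told apart from its own. This touches Dnah11 (Cdca7l), Dnaaf1 (Taf1c), Ccdc39 (Ttc14), Spag17 (Wdr3), Cfap100 (Zxdc), Rsph9 (Mrps18a), Cfap61 (Crnkl1), Dnai1 (Enho), Dnaaf9 (Gm14048), Dnah8 (Glo1), Dnah17 (Pgs1) and Cfap43 (Gsto1 and Gsto2) among the genes named here.

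Summed over the 79 genes, axoneme transcripts lay apart by library kind and overlapped between clone sizes. In large clones of mice 1 to 6 the sum was 2139, 2915, 6861, 5976, 8691 and 1965 CPM, and in small clones of the same mice 5318, 6168, 3465, 13084, 8349 and 1909 CPM. The small clones of mouse 4 had the highest sum and those of mouse 6 the lowest. Large clones averaged 4758 ± 2808 CPM (SD, n = 6), small clones 6382 ± 3962 CPM (SD, n = 6), and the groups overlapped. The 5 higher-share libraries lay between 1909 and 3465 CPM and the 7 lower-share libraries between 5318 and 13084 CPM, with no overlap. The separation was also present with TMM-scaled totals (1620 to 3359 against 5144 to 15098 CPM) and without Rsph3b (1704 to 3208 against 3714 to 11977 CPM). In bulk RNA of pooled cells, fewer ciliated cells and less RNA per ciliated cell cannot be told apart. Neither can be told apart from whatever else sets the 5 higher-share libraries off from the other 7. The cause of the separation was not tested.

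The summed level of 4 epithelial markers (Epcam, Krt8, Krt18 and Cdh1) ran from 285 to 1381 CPM in the higher-share and from 2502 to 6505 CPM in the lower-share libraries. Most of it was Krt18; Krt18 and Krt8 lay apart between the library kinds, whereas Epcam and Cdh1 overlapped. The sum of 8 secretory markers ran from 771 to 1868 and from 847 to 7152 CPM. Among these, Krt7 lay apart, higher in the lower-share libraries (34.1 to 272 against 6.14 to 25.6 CPM), and Wt1 lay apart the other way (9.06 to 89.3 against 137 to 357 CPM). The sum of 5 immune markers ran from 15.3 to 303 and from 0 to 88.8 CPM, and that of 4 endothelial markers from 104 to 184 and from 19.3 to 242 CPM. The part of these differences in the axoneme sums was not tested.

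**Figure D2:**
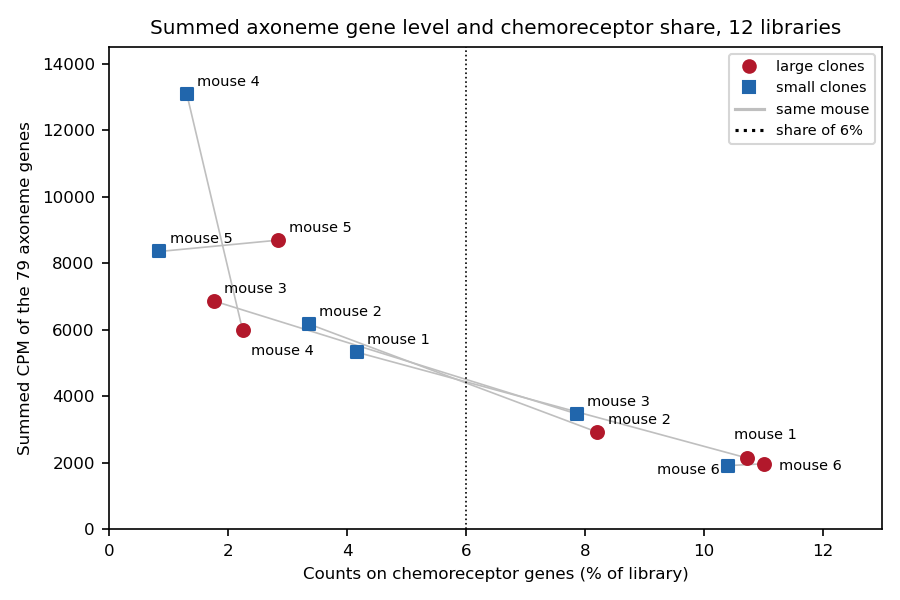
Summed CPM of the 79 axoneme genes (y axis) against the percentage of counts on chemoreceptor genes (x axis) in 12 libraries; circles are large and squares small clones, and grey lines join libraries of a mouse. The 5 libraries right of the dotted line at 6% lie between 1909 and 3465 CPM, below the other 7, at 5318 to 13084 CPM.

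Among the 57 members with enough counts to be tested, 10 had all 7 lower-share libraries above all 5 higher-share libraries, where 7.46% of the 10848 genes tested did. The reverse held for 0 of the 57, against 12.5% of all genes tested. Radial spoke genes among the 10 were Rsph1, a head component, at 201 to 654 CPM in the 7 libraries against 6.15 to 89.9 in the 5, and Rsph10b at 49.4 to 297 against 0 to 4.33 CPM. Cfap57 and Cfap44, proteins at the base of the inner arms, lay at 319 to 955 against 55.1 to 190 CPM and at 25.5 to 185 against 2.64 to 18.2 CPM. Tekt1, a tektin filament protein, had 45.6 to 259 against 1.89 to 7.21 CPM. The other 5 were Dnah6, Dnaaf1, Cfap126, Spag17 and Cfap65. The 10 came from every role except outer arm heavy chains, intermediate chains and the ruler pair, and the other 47 tested members overlapped between the library kinds.

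The mean was higher in the lower-share libraries for 47 of the 57 tested members, against 43.5% of all genes tested, with a median ratio of 3.70 for members and 0.740 for all. The small clones of mouse 4 were the highest of the 12 libraries for 27 of the 57, where 8.63% of all genes tested were highest there. The exceptions included Dnaaf9, a factor grouped with the dynein assembly proteins, at 394 to 964 CPM in the 5 and 180 to 672 CPM in the 7 libraries. Dnah17, an outer arm motor known from sperm, had 3.20 to 22.5 against 0 to 3.48 CPM, and Dnah7b had 30.3 to 66.2 against 5.46 to 43.6 CPM. In these 3 genes the ranges overlapped, and the mean was the higher one in the 5 libraries.

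**Figure D3:**
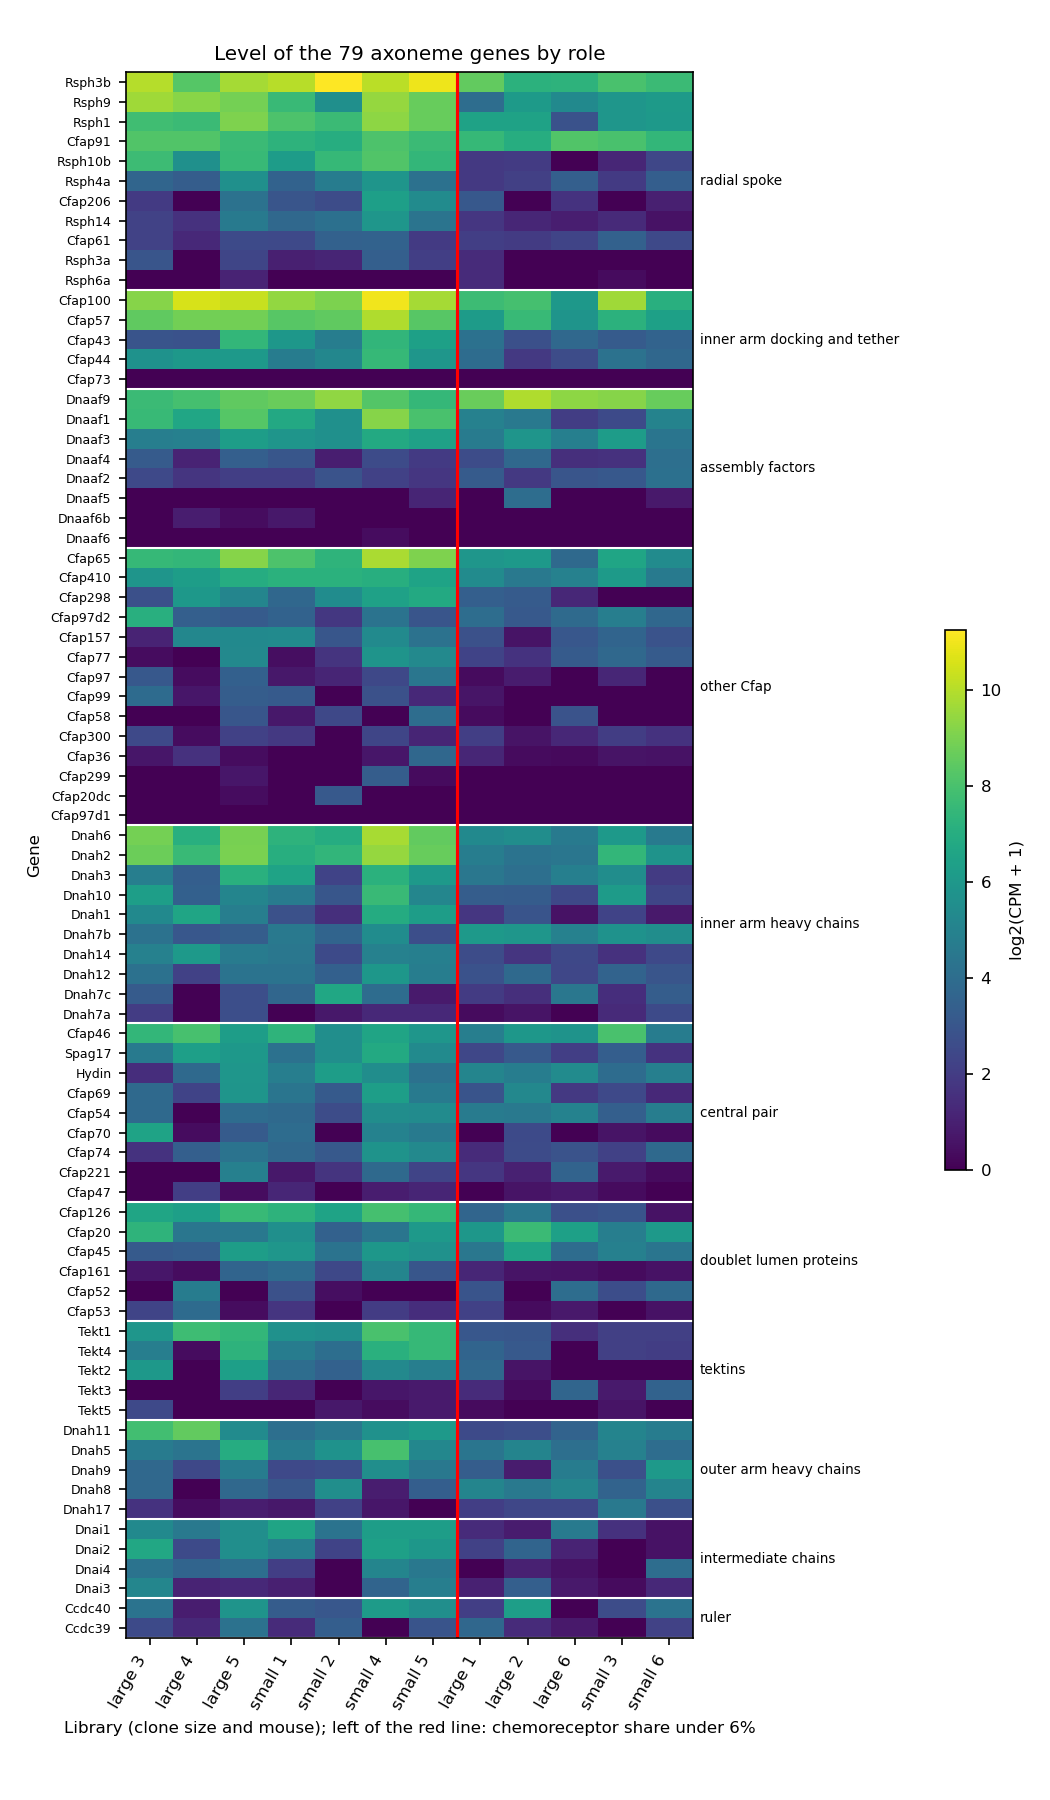
Colour gives log2(CPM + 1) for each of the 79 axoneme genes (rows, by role) in the 12 libraries (columns); the 7 libraries left of the red line had a chemoreceptor share under 6%. Rsph1, Rsph10b, Tekt1 and Cfap126 are brighter in every library left of the line than in any right of it.

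The members' promoters were searched for the motif of the RFX factors. RefSeq (GRCm38.p6) promoters, from 250 bases before to 50 after a gene's start, were matched for 66 of the 79 members. The X-box, searched on both strands as GT, any 2 bases, CC, any 2 or 3 bases, GG, any base and AAC, occurred in 7 of the 66 (10.6%) and in 1.78% of 27025 genes with such a promoter. The shorter motif GTTGCC, which can form the outer part of an X-box, occurred in 27 members (40.9%) and in 14.1% of all. The forkhead letters TGTTTAC occurred in 4 members (6.06%: Cfap20, Cfap43, Dnah17 and Tekt3) and in 4.05% of all. Members with a full match to the X-box letters were Cfap206, Cfap20dc, Cfap298, Dnaaf5, Dnaaf6, Dnaaf6b and Tekt4. None of these was among the 10 genes that lay apart by library kind, of which 6 had a promoter in the RefSeq set. Cfap44 and Tekt1, among those 6, carried the shorter motif. Sites that depart from the searched letters were not counted, so a gene without a full match can still hold an X-box. The 3 members with a full match and enough counts to be tested are shown. Each is given as the 250 bases before the start in the direction of the gene, with the X-boxes in capitals (Cfap298 at chr16:90934850-90935099, minus strand, Tekt4 at chr17:25471340-25471589, plus strand, Cfap206 at chr4:34730207-34730456, minus strand).
Cfap298: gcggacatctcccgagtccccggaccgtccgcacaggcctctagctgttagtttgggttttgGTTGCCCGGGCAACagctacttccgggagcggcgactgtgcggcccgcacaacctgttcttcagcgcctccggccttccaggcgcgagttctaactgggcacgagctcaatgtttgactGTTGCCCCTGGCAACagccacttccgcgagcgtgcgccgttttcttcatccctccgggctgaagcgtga
Tekt4: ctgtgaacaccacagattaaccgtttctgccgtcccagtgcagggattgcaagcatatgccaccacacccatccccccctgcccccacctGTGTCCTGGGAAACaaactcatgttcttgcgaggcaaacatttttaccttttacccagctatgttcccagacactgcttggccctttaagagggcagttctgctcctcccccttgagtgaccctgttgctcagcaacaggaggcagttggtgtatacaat
Cfap206: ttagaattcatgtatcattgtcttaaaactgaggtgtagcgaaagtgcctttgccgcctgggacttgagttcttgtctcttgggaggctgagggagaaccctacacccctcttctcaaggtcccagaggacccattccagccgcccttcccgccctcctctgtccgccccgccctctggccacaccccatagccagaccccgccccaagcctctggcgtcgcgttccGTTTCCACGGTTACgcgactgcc
Cfap298 carries the motif in both spacings, and the Cfap206 match reads on the opposite strand to the gene.

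The genes behind these promoters differed widely in level. Cfap298, a factor needed for dynein arm assembly, had 9.61, 8.44, 5.74, 62.4, 34.3 and 1.42 CPM in large clones and 12.8, 43.4, 0, 84.9, 115 and 0 CPM in small clones of mice 1 to 6. Its high libraries were all lower-share ones. Tekt4 ran from 0 to 155 CPM in large and from 3.13 to 188 CPM in small clones, and Cfap206, a radial spoke adaptor, from 0 to 18.2 and from 0 to 81.1 CPM. The remaining 4 genes with an X-box were too low to be tested.

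Large and small clones were compared across all genes with edgeR's quasi-likelihood test, in which a positive log2 fold change means higher in large clones. At a Benjamini-Hochberg adjusted p under 0.05, 0 of the 57 tested members were called, as were 0% of the 10848 genes tested. At an unadjusted p under 0.05 it was again 0 members, against 2.54% of all. The smallest unadjusted p of a member was 0.0797 (Cfap61), and the adjusted p of all 57 was 0.9996. After Cfap61, the unadjusted p was lowest for Dnah11 (0.0869), Cfap74 (0.0931), Cfap20 (0.0991), Cfap97d2 (0.122) and Rsph3b (0.125). DESeq2 called 0 members after adjustment, against 0.0461% of all genes, and had 2 with an unadjusted p under 0.05 (Dnah11 and Cfap61), against 4.95% of all genes. The standard error of the log2 fold change ranged from 0.46 to 1.72 over the members, with a median of 1.02, so most differences between clone sizes lay within their error.

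The sign leaned to small clones. The log2 fold change was below 0 for 43 of 57 members (75.4%), against 46.8% of all genes tested, and its median was -0.48 for members and 0.06 for all genes. The lean rested on particular animals: without mouse 4 the median was -0.12, and without mouse 3 it was -0.85. Within mice, 42, 37, 18, 50, 19 and 29 of the 57 members were lower in the large clones of mice 1 to 6, against 43.5%, 45.1%, 53.6%, 61.4%, 40.0% and 50.1% of all genes tested. The median difference of members (large minus small, log2(CPM + 1)) was -1.46, -1.01, 1.29, -1.81, 0.28 and -0.011, and that of all genes tested 0.33, 0.29, -0.31, -0.56, 0.34 and -0.0034. In mouse 4 all genes leaned the same way as the members, and in mice 5 and 6 the medians of members and of all genes were close.

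These within-mouse values went with the library split in mice 1, 2 and 3. In mice 1 and 2 the large clone library was a higher-share library and the small clone library was not, and the axoneme sum in small clones was 2.49 and 2.12 times that in large clones. In mouse 3 the kinds were the other way round, and the ratio was 0.505. Mice 4 and 5 had only lower-share and mouse 6 only higher-share libraries, and their ratios were 2.19, 0.961 and 0.972. With the chemoreceptor share as a covariate the median was -0.08 against 0.01 for all genes, and 33 of 57 members were below 0. In the 7 lower-share libraries alone it was -0.24 against -0.10 (63 members tested, 38 below 0, where 54% of all 11245 genes tested were). There large clones summed to 7176 ± 1385 CPM (SD, n = 3) and small clones to 8230 ± 3479 CPM (SD, n = 4), which overlapped.

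**Figure D4:**
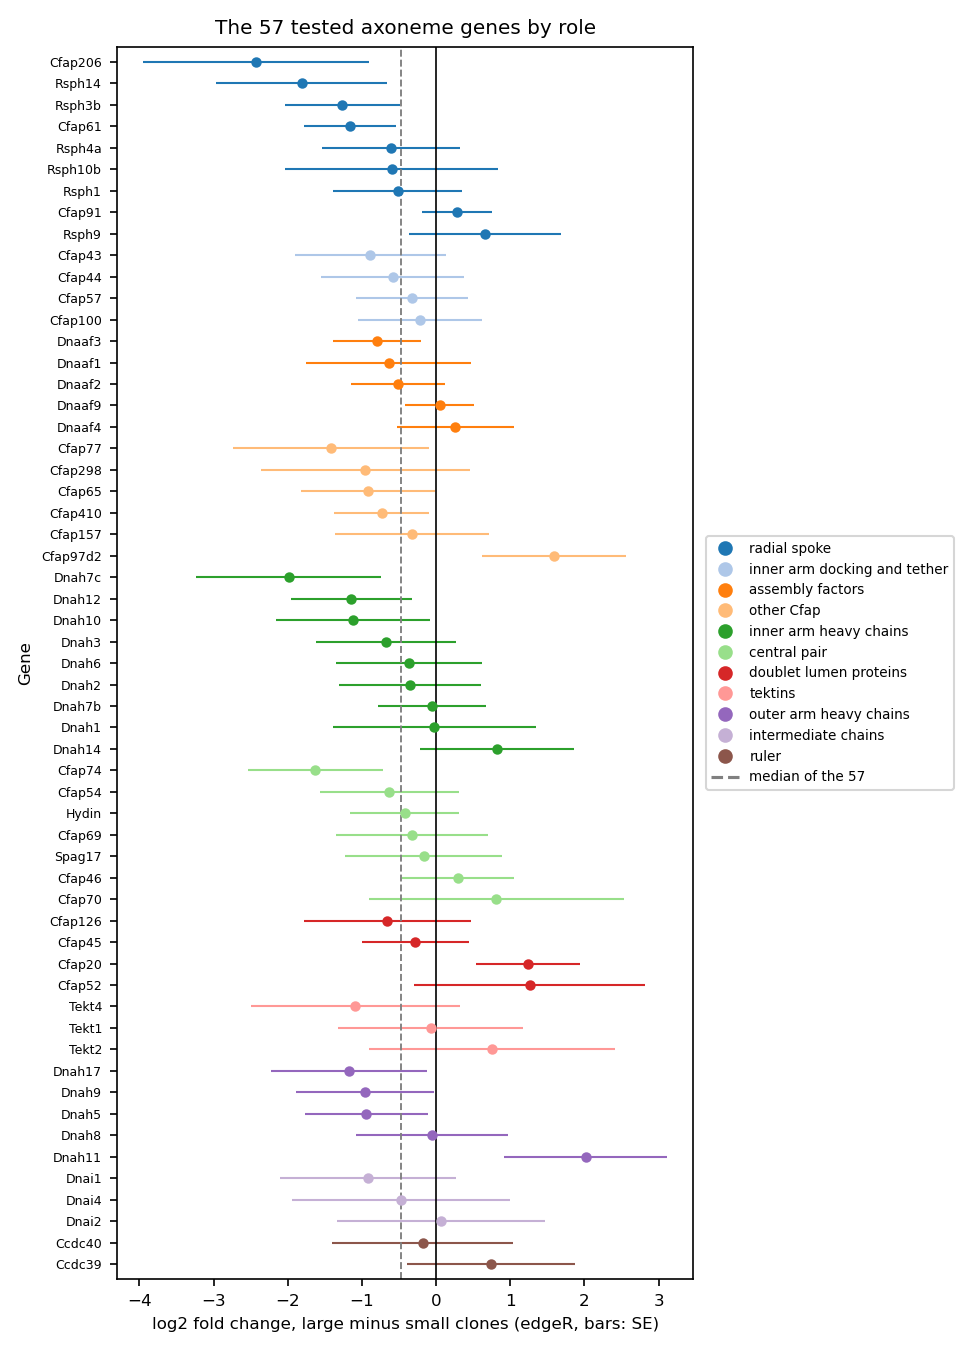
Points give the edgeR log2 fold change of large minus small clones (x axis) for the 57 tested axoneme genes, coloured by role, with bars of 1 SE on either side. The dashed line marks their median of -0.48, and none of the 57 had an adjusted p under 0.05.

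Of the 5 outer arm heavy chains, all tested, 4 had a value below 0 and 1 above. Dnah5, the gamma-type outer arm motor of airway and oviduct cilia, had 19.5, 32.4, 24.8, 19.2, 123 and 16.3 CPM in large clones of mice 1 to 6, and 25.5, 52.3, 29.9, 253, 36.2 and 15.4 CPM in small clones. A single library led in each group, mouse 5 in large and mouse 4 in small clones, while the rest overlapped (log2 fold change -0.94, SE 0.83). Without mouse 4 the Dnah5 value was 0.31. Dnah9, an outer arm motor of the distal part of the cilium, ran from 0.791 to 25.8 CPM (median 11.0) in large and from 4.58 to 66.5 CPM (median 13.7) in small clones (log2 fold change -0.96, SE 0.93). Its highest library, the small clones of mouse 6, was a higher-share one.

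Dnah11, the counterpart of Dnah9 in the proximal part of the cilium, had the highest fitted value of the 57 and changed sign with the model. Its levels in large clones were 4.80, 5.54, 230, 371, 41.9 and 11.1 CPM, and in small clones 16.4, 22.2, 32.7, 50.1, 66.0 and 25.5 CPM. Only the large clones of mice 3 and 4 lay above every small clone library, and large clones were the lower ones in 4 of 6 mice. The log2 fold change was 2.02 (SE 1.10) and became -0.27 with mouse as a block. Dnah8 and Dnah17, the outer arm motors best known from sperm, ran from 0 to 46.6 CPM and from 0 to 22.5 CPM over the 12 libraries.

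**Figure D5:**
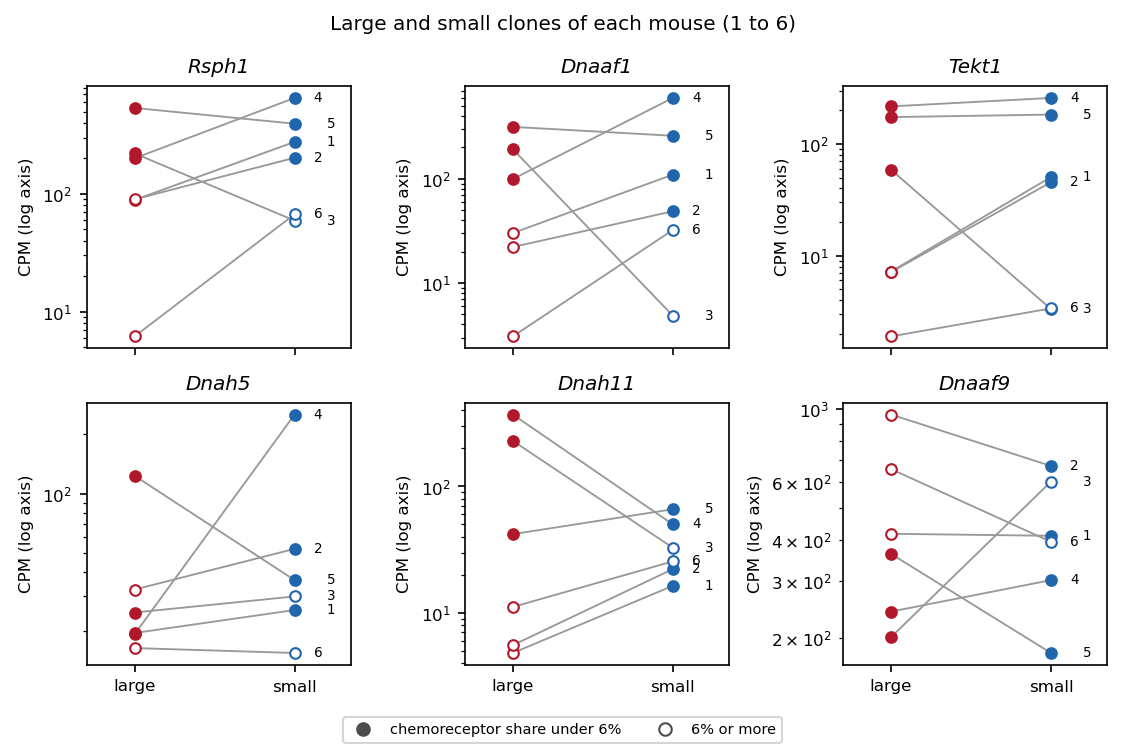
Each panel plots CPM (log axis) of a named axoneme gene in large and small clones, with lines joining the libraries of mice 1 to 6; open circles are libraries with a chemoreceptor share of 6% or more. In Rsph1, Dnaaf1 and Tekt1 the open circles lie below all filled ones, while Dnah11 has its highest values, 230 and 371 CPM, in the large clones of mice 3 and 4.

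Among the 10 inner arm heavy chains, 9 were tested and 8 had a value below 0. Dnah6 and Dnah2 were the most abundant motors: Dnah6 ran from 23.9 to 496 CPM (median 90.4) in large and from 24.1 to 891 CPM (median 140) in small clones, and Dnah2 from 18.7 to 512 and from 53.7 to 720 CPM. Among the intermediate chains, Dnai1 and Dnai2 anchor outer arm motors. Dnai1 had 1.60, 0.791, 40.2, 22.5, 46.6 and 23.7 CPM in large and 94.5, 18.4, 2.05, 76.4, 77.1 and 0.482 CPM in small clones (log2 fold change -0.92, SE 1.18, and 0.13 with the chemoreceptor share as a covariate). Dnai2 ran from 1.18 to 106 CPM (median 8.03) in large and from 0 to 84.6 CPM (median 16.0) in small clones, with a log2 fold change of 0.06 (SE 1.40) that became -0.18 with mouse as a block. For both chains the clone sizes overlapped throughout.

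The assembly factors were split. Dnaaf1, a leucine-rich repeat factor for dynein assembly, had 30.2, 22.1, 192, 99.3, 315 and 3.08 CPM in large clones and 110, 48.8, 4.86, 597, 259 and 32.3 CPM in small clones of mice 1 to 6. All 7 lower-share libraries were above the other 5, and the clone sizes overlapped (log2 fold change -0.64, SE 1.11, and 0.29 without mouse 4). Dnaaf9 was the third most abundant member, with 417, 964, 202, 241, 362 and 657 CPM in large and 411, 672, 602, 301, 180 and 394 CPM in small clones. Its SE of 0.46 was the smallest of the members and its log2 fold change was 0.05, which became -0.079 with the covariate.

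Radial spoke genes held 11 members, of which 9 were tested, 7 below and 2 above 0, with a median of -0.61. Rsph3b, a spoke stalk protein and the most abundant member, had 374, 148, 1042, 315, 848 and 152 CPM in large and 1069, 2454, 257, 1106, 2041 and 205 CPM in small clones. It was lower in the large clones of 5 of 6 mice (log2 fold change -1.26, SE 0.78). Without mouse 2 that value was -0.81 and without mouse 3 it was -2.04. Rsph1 had 88.9, 89.9, 221, 201, 537 and 6.15 CPM against 277, 203, 59.3, 654, 395 and 67.2 CPM (log2 fold change -0.52, SE 0.87). Rsph4a and Rsph9, both spoke head proteins, differed in sign: Rsph4a ran from 2.67 to 48.7 CPM (median 9.28) in large and from 2.81 to 57.2 CPM (median 14.2) in small clones (log2 fold change -0.61, SE 0.92, and 0.10 without mouse 4), and Rsph9 from 15.5 to 811 CPM (median 274) and from 47.8 to 704 CPM (median 133), at 0.66 (SE 1.03). The Rsph9 value became -0.098 in the fit that blocks on the mouse, and leaving out mouse 3 gave -0.096.

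Cfap61, a protein of the spoke and its calmodulin-associated complex, had the smallest p of the members at a low level. It had 3.20, 2.90, 3.63, 1.48, 4.69 and 4.02 CPM in large and 4.58, 10.5, 10.2, 10.6, 2.73 and 4.57 CPM in small clones. Large clones were the lower ones in 5 of 6 mice and the small clones of mice 1, 5 and 6 lay within the range of the large clones (log2 fold change -1.16, SE 0.62). Its level did not follow the library split, at 2.90 to 10.2 CPM in the 5 and 1.48 to 10.6 CPM in the 7 libraries.

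In the central pair group, 5 of 7 tested genes had a value below 0. Cfap74, a central pair projection protein, was the only tested member lower in the large clones of 6 of 6 mice, a pattern that 1.11% of all genes tested showed. The reverse order in all 6 mice occurred in 0 members and 0.977% of genes. Cfap74 levels were 1.60, 5.01, 2.12, 9.76, 18.8 and 6.39 CPM in large and 13.1, 7.92, 3.58, 54.2, 38.7 and 13.2 CPM in small clones (log2 fold change -1.63, SE 0.91). The ranges of the groups overlapped although the order within every mouse was the same. Hydin, a giant central pair protein, ran from 1.81 to 59.8 CPM (median 29.9) in large and from 14.6 to 76.4 CPM (median 27.7) in small clones (log2 fold change -0.42, SE 0.74, and 0.027 without mouse 2). Spag17, another central pair protein, had 4.27, 7.91, 23.9, 82.2, 63.3 and 3.31 CPM in large and 17.7, 45.6, 9.46, 114, 40.7 and 2.17 CPM in small clones. Its 7 lower-share libraries were all above the 5 others, and its log2 fold change between clone sizes was -0.17 (SE 1.06), or 0.37 with the covariate.

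The inner arm docking and tether group had 4 tested genes, all with a value below 0 and a median of -0.46. Cfap100 had 212, 247, 599, 1530, 1282 and 63.9 CPM in large and 702, 523, 799, 2092, 846 and 138 CPM in small clones (log2 fold change -0.21, SE 0.84, and 0.32 in the 7 lower-share libraries), lower in the large clones of 5 of 6 mice. Cfap57 had 70.7, 190, 364, 466, 470 and 55.1 CPM against 319, 361, 150, 955, 322 and 83.5 CPM (log2 fold change -0.32, SE 0.76, and 0.00031 with the covariate). Ccdc39 and Ccdc40 form the coiled-coil ruler that sets the repeat along the doublet. Ccdc39 had 0.710 to 17.9 CPM (median 3.21) in large and 0 to 9.19 CPM (median 2.62) in small clones, at a log2 fold change of 0.74 (SE 1.14). Ccdc40 ran from 0 to 78.1 CPM (median 11.0) and from 5.11 to 71.0 CPM (median 13.8), at -0.18 (SE 1.22), or 0.75 without mouse 4. Neither differed beyond the spread between mice.

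Proteins of the doublet lumen and the tektins gave both signs. Cfap126, a lumen protein also linked to ciliated cell polarity, had 11.7, 21.1, 98.5, 80.7, 193 and 5.68 CPM in large and 153, 90.6, 6.65, 245, 179 and 0.482 CPM in small clones (log2 fold change -0.66, SE 1.13, and 0.52 with the covariate). Tekt1 had 7.21, 7.12, 58.9, 218, 174 and 1.89 CPM against 50.7, 45.6, 3.32, 259, 184 and 3.37 CPM (log2 fold change -0.07, SE 1.24, and 0.76 with the covariate). In both genes the library kinds lay apart and the clone sizes did not. Cfap20, a doublet seam protein also found in non-motile cilia, had 61.6, 204, 158, 20.7, 22.0 and 82.3 CPM in large and 48.1, 10.1, 27.4, 19.8, 65.2 and 65.3 CPM in small clones. It was higher in the large clones of 5 of 6 mice (log2 fold change 1.24, SE 0.70), but 0.64 without mouse 2, 0.71 without mouse 3 and -0.34 in mice 4, 5 and 6 with the block. Cfap97d2 was also higher in large clones in 5 of 6 mice, at 7.91 to 137 CPM (median 11.7) against 2.53 to 26.8 CPM (median 11.8). Its log2 fold change of 1.59 (SE 0.97) rested on the large clones of mouse 3 and was -0.013 without that mouse.

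A list of 55 further motile cilium gene symbols, which the naming rule does not take, also lay apart by library kind in sum and overlapped between clone sizes. Of these, 52 were in the table, and Pih1d3, an older name of the member Dnaaf6, was not. By edgeR 0 of the 38 tested were called, as were 0% of all genes tested. The log2 fold change was below 0 for 22 and above 0 for 16, where 46.8% of all genes were below 0. Its median was -0.24, against 0.06 for all genes. Their sum ran from 796 to 2486 CPM in the 5 higher-share and from 3071 to 10374 CPM in the 7 lower-share libraries. Sntn, which encodes a protein of the cilium tip, was the only one of the 38 with an unadjusted p under 0.05, where 2.54% of all genes had one. It had 32.3, 99.7, 70.1, 31.9, 51.3 and 3.31 CPM in large and 1.64, 0.950, 0.511, 25.1, 6.95 and 3.13 CPM in small clones, higher in large clones in 6 of 6 mice (log2 fold change 2.85, SE 1.08, adjusted p = 0.9996 in edgeR). That order in 6 of 6 mice occurred in 0.977% of all genes tested, and for Sntn the values of mouse 6, 3.31 and 3.13 CPM, were nearly equal. Foxj1 was low, with a mean of 2.94 CPM and an SD of 2.05 over the 6 libraries of large clones, and 7.48 and 9.28 in those of small clones. The RFX means lay the other way, but by less than their SDs. For Rfx2 the large clone mean was 40.2 CPM (SD 36.3) and the small clone mean 31.1 CPM (SD 27.5). For Rfx3 these means were 12.9 CPM (SD 18.5) and 10.4 CPM (SD 15.5). The edgeR log2 fold change was -1.27 (SE 1.15) for Foxj1, 0.20 (SE 0.80) for Rfx2 and 0.69 (SE 1.17) for Rfx3. Their unadjusted p in that test was 0.287, 0.803 and 0.561, so no order between clone sizes was established for these factors. Rfx2 averaged 51.0 CPM in the higher-share and 24.7 CPM in the lower-share libraries, against 0.996 and 8.22 CPM for Foxj1, with overlapping ranges. Of 14 listed ciliated cell genes that are not members, 11 were tested, 4 above and 7 below 0. Tppp3, Fam183b, Sntn, Dynlrb2, Dydc2 and Ccdc113 are also among the 55 symbols above, so the lists are not separate. The sperm and spermatid markers Prm1, Odf1 and Akap4 were at 0 in all libraries, and the 6 listed markers summed to at most 2.05 CPM.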

How the data were processed

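Expected counts per gene were deposited by the authors as 1 table (22.7% of entries not whole). RSEM, Bowtie2 and the build GRCm38 are named per the submitters' processing notes, without versions. Table starts equal those of GENCODE M21 (GRCm38) for 2 of 79 members, so no table coordinate is given. Coding lengths and shared windows came from GENCODE M21 by gene identifier. A row without a symbol held 0.133% of counts and was kept under its identifier.

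Expected counts were rounded and tested in edgeR 4.0.16 (R 4.3.3; quasi-likelihood, TMM, filterByExpr, no term for mouse, Benjamini-Hochberg over 10848 genes); 57 members passed the filter. The standard error of a log2 fold change was taken as its absolute value divided by the square root of the test's F statistic. Levels in CPM use total counts. The sign of the CPM means and of the fold change differs for Dnah7b, Dnai2, Ccdc40 and Dnah8. Equal numbers mark the same animal in the labels, so a block on mouse gave the paired alternative; deviations from the group means correlated between a mouse's libraries at -0.012, -0.015, -0.36, 0.26, 0.49 and 0.62 in mice 1 to 6. Other alternatives were DESeq2 1.42.0, its size factors, other filters, the chemoreceptor share and omission of mice. Mice 4, 5 and 6 alone were added after seeing the data. The edgeR script was tested on simulated data. Limits of 3 counts cover counting error only, since amplified reads are not independent molecules.

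Named genes were 15 listed members, the 3 of lowest p in each direction and the 5 of highest CPM; levels alone are given for others. Members, lists and rules were chosen with earlier results of these data known. Members were not treated as replicates.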

Additional observations from a re-analysis of the deposited data

Results flagged for a closer look

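The levels of 23 named members, the summed CPM and the numbers of members read were searched for a library far from the other 5 of its clone size. Of 52 groups searched, 2 held such a library, and chance gives about 2.6. Dnah5 in large clones was flagged because the library of mouse 5, at 123 CPM, lay far above the others, at 16.3 to 32.4 CPM. The gap was 0.666 of the whole range on the log2(CPM + 1) scale. Cfap97d2 in large clones was flagged because the library of mouse 3, at 137 CPM, lay above the others, at 7.91 to 15.2 CPM, with a gap of 0.782 of the range.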

How the results depend on the processing

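No member had an adjusted p under 0.05 in any of 16 alternatives of the fit, and the lowest was 0.232 (DESeq2 with mouse as a block, Rsph10b). Members with an unadjusted p under 0.05, 0 in the fit reported, were 1 with no filter on low counts (11.3% of all genes), 2 with DESeq2 (4.95%), 2 with DESeq2 and the block (10.5%), 3 in the 7 lower-share libraries (4.99%), 2 in mice 4, 5 and 6 alone (3.34%), and 0 to 2 with a mouse left out (4.36% without mouse 3, 2.73% without mouse 5). The median log2 fold change of members stayed below 0 throughout, at -0.70 with the replicate block, -0.36 with no filter, -0.59 with at least 10 counts in every library, and -0.85 to -0.12 with a mouse left out. The median of all genes moved from 0.06 to -0.06 with the block, -0.10 in the 7 libraries and -0.15 in mice 4, 5 and 6.

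Of 355 alternative values of the 23 named members, 308 kept their direction and 47 changed it, none past the threshold in either direction; the cause was not tested. Directions changed as follows.
With mouse as a block: Dnah11 -0.27, Dnai2 -0.18 and Rsph9 -0.098, and with DESeq2 and the block -0.30, -0.17 and -0.10.
In the 7 lower-share libraries: Spag17 0.25, Tekt1 0.34, Cfap100 0.32 and Dnaaf9 -0.45.
With the share as a covariate: Ccdc40 0.37, Spag17 0.37, Dnai1 0.13, Tekt1 0.76, Cfap126 0.52, Dnaaf9 -0.079 and Cfap57 0.00031.
With the covariate and the block: Spag17 0.12, Dnai1 0.37, Tekt1 0.53, Dnaaf1 0.45, Cfap126 0.81 and Dnaaf9 -0.064.
In mice 4, 5 and 6 with the block: Hydin 0.25, Spag17 0.27, Dnai1 0.28, Dnai2 -1.15, Rsph9 -0.23, Cfap126 0.35, Cfap20 -0.34 and Cfap97d2 -0.15.
With a mouse left out, values ran from -0.94 to 0.027 for Hydin, -1.05 to 0.75 for Ccdc40, -0.33 to 0.057 for Spag17, -1.83 to 0.31 for Dnah5, -1.62 to 0.94 for Dnai2, -1.47 to 0.10 for Rsph4a, -0.096 to 0.99 for Rsph9, -0.30 to 0.034 for Tekt1, -1.25 to 0.29 for Dnaaf1, -0.013 to 1.85 for Cfap97d2 and -0.074 to 0.26 for Dnaaf9.

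The difference in summed CPM (large minus small) was -1624 and lay between -2628 and -528 with a mouse left out; that in members read was -0.67 and lay between -1.60 and 1.20. With 3 counts at 0.710 to 0.981 CPM, members near this level were limited by depth.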
